A study of Sorghum bicolor with 12 samples.

Results

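The comparison described here sets Ds3 against Ds1 in middle internodes of the stem of CSH22SS, a sweet sorghum (Sorghum bicolor) hybrid. Both groups were at booting, the stage at which the panicle is still enclosed by the flag-leaf sheath, and both stand under the table's heading for water-limiting conditions. Of the 12 libraries of the series, the 4 of these groups were chosen by their labels, 2 for Ds1 and 2 for Ds3. All groups of the series were the same hybrid, raised in an open field. The labels do not spell out Ds, its severity or its timing, so Ds1 and Ds3 cannot be read as earlier and later. The other groups whose levels are given beside them are Ds2, also under that heading, and booting without a Ds code. RNA was recorded as FPKM (fragments scaled by transcript length and by library size), with 1 value for each group of 2 libraries. The spread between libraries cannot be seen, and differences are given by size with no test.

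In sweet sorghum the elongated internode stores sucrose in its parenchyma, and the supply arrives through the phloem from the leaves. Invertases and sucrose synthases split that sucrose, sucrose-phosphate synthases act in rebuilding it, and transporters move it across the plasma membrane and the tonoplast. The walls of vascular and fibre cells are thickened with cellulose and lignin, whose carbon also comes from the imported sugar. Under water deficit plant tissues are known to accumulate proline and dehydrins, and sorghum also makes dhurrin, a cyanogenic glucoside that stores nitrogen.

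The table gives its loci gene IDs and no gene names, and 0 of the 32976 distinct IDs had a match in RefSeq's gene table (assembly NCBIv3). Names and roles below are those the sorghum literature uses for these IDs, recalled and not looked up in an annotation, and they cover 46 IDs in 11 lists. Of the 34718 loci in the water-limiting part, 33391 carried a gene ID, and 9441 of these reached 10 FPKM in Ds1 or Ds3. The size rule for calling a locus higher or lower asked for a difference of at least 2 in log2(FPKM + 1), which is a ratio of 4, and for 10 FPKM or more in the higher group. Total FPKM was 885374 in Ds1 and 647608 in Ds3. The 10 most abundant gene loci held 26.6% of the total in Ds1 and 19.7% in Ds3.

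More loci were lower than higher in Ds3. By the size rule 371 loci were lower, 3.93% of those measured at 10 FPKM or more, and 118 were higher, 1.25%. The median difference over all 9441 loci was -0.04 in log2, with quartiles of -0.51 and 0.40, and 80.9% of loci lay within 2-fold. Differences of at least 16-fold were found at 59 lower and 6 higher loci, and differences of at least 64-fold at 10 lower and 0 higher loci. In 7 of the 371 lower loci Ds3 was listed at 0. Rescaling Ds1 and Ds3 to equal totals without their most abundant loci gave 188 higher and 265 lower loci, so that 41.5% of the loci past the rule were higher against 24.1% as deposited, and it moved the median to 0.24. As in any bulk tissue sample, fewer cells of a type and less RNA per cell cannot be told apart in any of these differences.

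**Figure D1:**
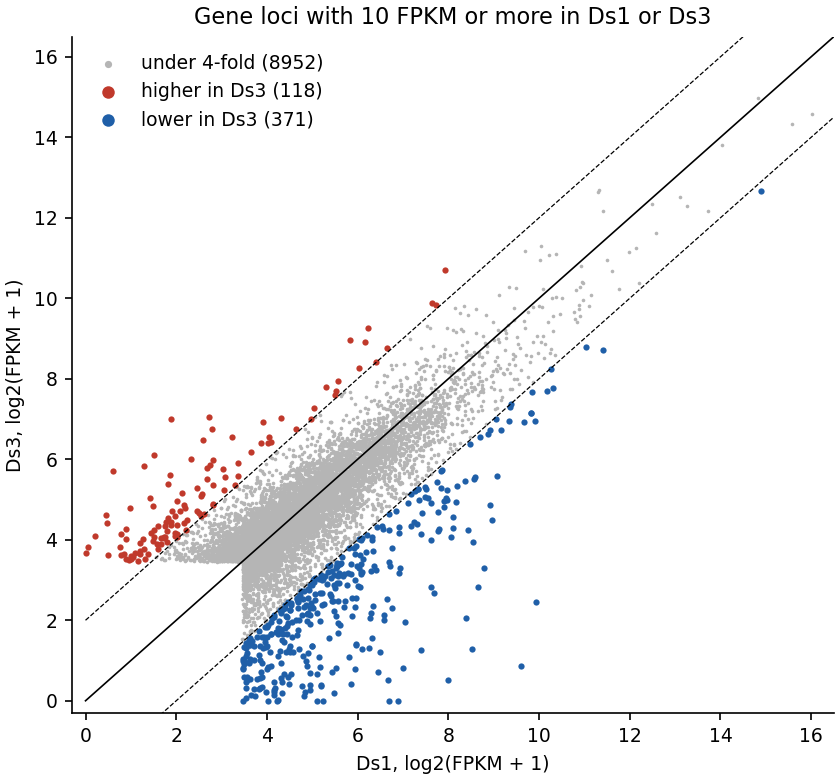
Each point is a gene locus with 10 FPKM or more in Ds1 or Ds3, plotted by its log2(FPKM + 1) in Ds1 (x axis) and Ds3 (y axis), with the diagonal and dashed lines at 4-fold. The 371 blue loci lower in Ds3 outnumber the 118 red loci higher in Ds3 and reach farther from the diagonal.

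The levels in the other groups place these loci. The 371 lower loci had a median of 35.9 FPKM in Ds1, against 7.34 in Ds2 and 3.91 in Ds3, beside 8.40 in booting. Their median log2 difference was -2.08 from Ds1 to Ds2 and -0.62 from Ds2 to Ds3. The 118 higher loci had a median of 3.00, 15.9 and 25.1 FPKM in Ds1, Ds2 and Ds3, beside 3.20 in booting. Their median log2 difference was 1.79 from Ds1 to Ds2 and 0.75 from Ds2 to Ds3. For both sets the median step between Ds1 and Ds2 was thus larger than the step between Ds2 and Ds3. The steps share their groups with the comparison that chose the loci. By the same rule, 3.25% of loci differed between Ds2 and Ds1 and 0.515% between Ds3 and Ds2, against 5.18% between Ds3 and Ds1.

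In the values as deposited, abundant loci were lower in Ds3 in a larger share than scarce ones. Among the 3349 loci whose higher value lay from 10 to under 20 FPKM, 3.02% were lower by the rule and 1.40% higher, with a median log2 difference of 0.07. Among the 328 loci from 200 to under 500 FPKM, 10.4% were lower and 2.44% higher, with a median of -0.51. Among the 153 loci at 500 FPKM or more, 12.4% were lower and 2.61% higher, with a median of -0.86. The median went down from each of the 6 level classes to the next. The median also went down from class to class under each rescaling tried. The size of this fall and the shares at 500 FPKM or more depended on the scaling. Scaling by the median of ratios left 12.99% of the loci at 500 FPKM or more lower and 2.60% higher, with a median of -0.90. With quantile normalization, which gives both groups the same distribution of values, 8.40% of the loci at 500 FPKM or more were higher in Ds3 and 6.11% lower, with a median of -0.16. With equal totals, set without the 10 most abundant loci, these shares were 5.52% higher and 7.59% lower, with a median of -0.54.

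**Figure D2:**
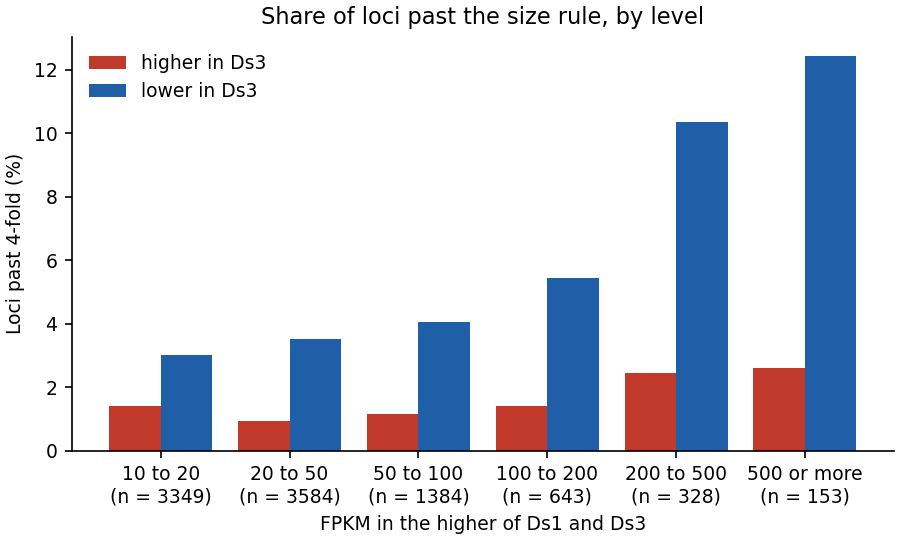
Bars show the percentage of gene loci past the size rule (y axis) in 6 classes of the higher FPKM value of Ds1 and Ds3 (x axis, with the number of loci). In these values as deposited, the share lower in Ds3 runs from 3.02% in the lowest class to 12.4% in the highest and the share higher stays between 0.949% and 2.61%, whereas with quantile normalization the highest class has more loci higher (8.40%) than lower (6.11%).

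Among the 11 listed genes of sucrose metabolism, a cell-wall invertase differed most. This invertase, Sobic.004G166700, splits sucrose outside the cell, and its level was 5.09 FPKM in booting and 5.62 in Ds1, then 45.2 in Ds2 and 131 in Ds3. Ds1 was close to booting, and Ds2 and Ds3 were above it, with a log2 difference of 4.32 between Ds3 and Ds1. The sucrose-phosphate synthase Sobic.005G089600, an enzyme of sucrose synthesis, read 0.953 FPKM in booting and 4.52 in Ds1, against 23.3 in Ds2 and 25.2 in Ds3. Its log2 difference was 2.24 between Ds3 and Ds1 and 2.14 between Ds2 and Ds1. With a pseudocount of 5 FPKM the difference between Ds3 and Ds1 was 1.66, under the 4-fold line. These were the 2 genes of the 11 on the list past the rule, and 0 were lower by it. Of the 11, 9 reached 10 FPKM in Ds1 or Ds3. Over all loci at that level, 1.25% were higher and 3.93% lower.

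The remaining listed sucrose genes did not pass the rule, and their differences had both signs. Sucrose synthase Sobic.010G072300, which cleaves sucrose inside the cell, read 178 FPKM in booting and 1098, 447 and 364 in Ds1, Ds2 and Ds3, a log2 difference of -1.59. Sucrose synthase Sobic.001G344500 read 74.5, 52.7, 15.5 and 19.7 FPKM in the same order, a difference of -1.37. Ds1 thus had the highest of the 3 Ds values for both synthases. Another sucrose synthase, Sobic.001G378300, read 85.0 FPKM in Ds1 and 104 in Ds3, and the remaining Sobic.004G357600 stayed at or under 2.49 FPKM in all groups. The other 4 sucrose-phosphate synthases lay between -0.15 and 0.27 in log2, and Sobic.009G233200, the most abundant of them, read 65.9 FPKM in Ds1 and 78.2 in Ds3. The vacuolar invertase Sobic.004G004800, which splits stored sucrose, read 2.65 FPKM in Ds1 and 4.19 in Ds3, too low for the rule. The median of the 11 genes was 0.27 in log2, beside -0.04 over all loci measured at 10 FPKM or more.

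The 4 listed sugar transporter genes stayed within 2-fold between Ds1 and Ds3. The tonoplast sugar transporter TST (Sobic.004G099300), which loads the vacuole, read 54.4 FPKM in Ds1, against 80.3 in Ds2 and 73.1 in Ds3, all below the 164 of booting. Of the sucrose transporters, SUT1 (Sobic.001G488700) read 89.0 FPKM in Ds1 and 92.4 in Ds3. Levels of SUT2 (Sobic.004G353600) were 12.6 and 17.8 FPKM in that order, and those of SUT4 (Sobic.008G193300) were 95.7 and 62.4. None of these 4 genes passed the rule, and their log2 differences ran from -0.61 to 0.47.

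Among the listed genes of the response to dehydration, 1 dehydrin gene and 1 proline gene had an ID. The dehydrin gene DHN1 (Sobic.009G116700), whose product protects drying cells, read 0.664 FPKM in booting and 1197, 2284 and 2143 in Ds1, Ds2 and Ds3. All Ds groups were far above booting, and the log2 difference of 0.84 between Ds3 and Ds1 did not pass the rule. P5CS2 (Sobic.003G356000), an enzyme of proline synthesis, read 123 FPKM in booting and 1224 in Ds1, against 406 in Ds2 and 303 in Ds3. Ds3 was above booting but lay below Ds1, with a log2 difference of -2.01, just past the 4-fold line. With equal totals the P5CS2 difference was -1.75, with quantile normalization -1.47 and with a pseudocount of 5 FPKM -1.997, all under that line.

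**Figure D3:**
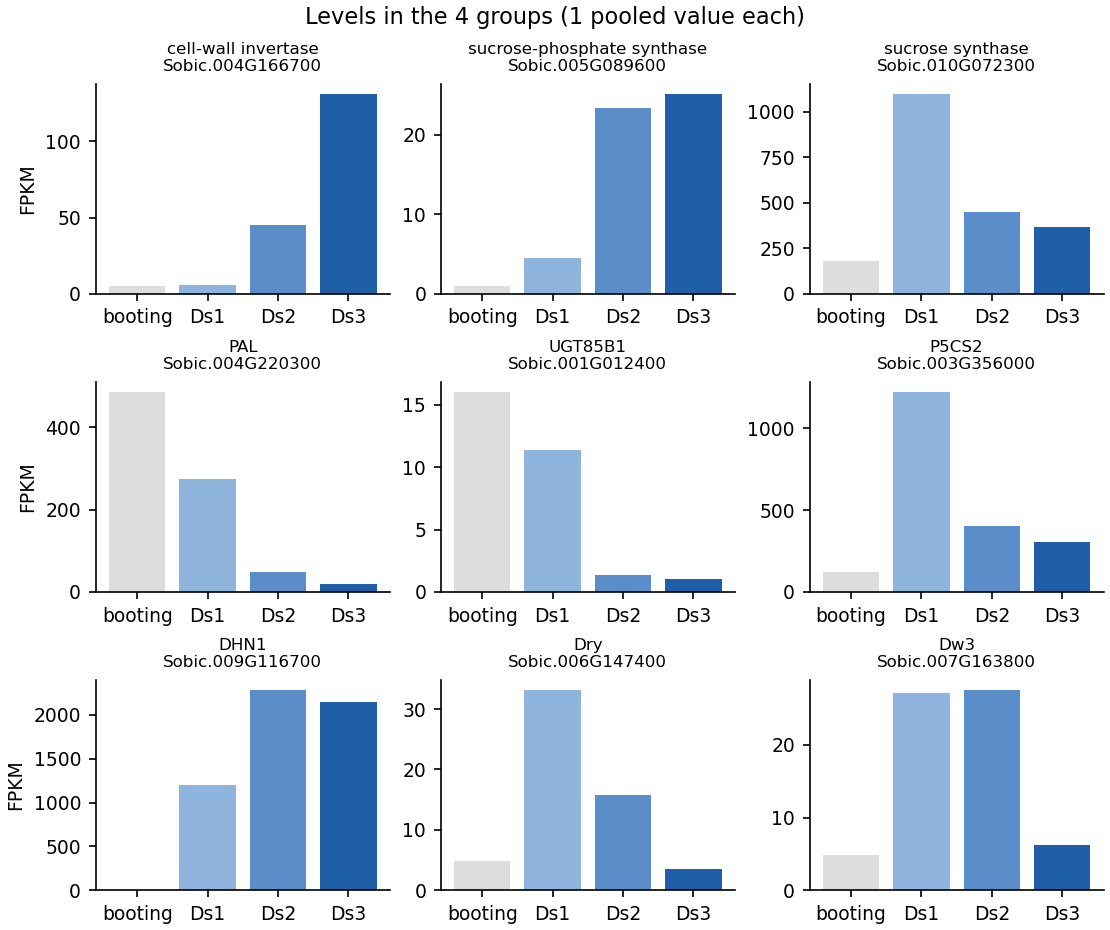
Bars show FPKM (y axis, from 0, scaled per panel) of 9 genes in booting, Ds1, Ds2 and Ds3, with 1 pooled value per bar and no error. The cell-wall invertase is highest in Ds3 at 131 FPKM, whereas sucrose synthase Sobic.010G072300 and P5CS2 are highest in Ds1 at 1098 and 1224 FPKM.

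The 1 listed gene for the entry enzyme of lignin synthesis was lower in Ds3. Other loci for this enzyme could not be searched by product name. PAL (Sobic.004G220300), which turns phenylalanine into cinnamate, read 486 FPKM in booting and 275, 48.6 and 18.5 in Ds1, Ds2 and Ds3. The 3 Ds groups differed in steps, and the log2 difference between Ds3 and Ds1 was -3.82. PAL was the 1 gene of the 9 reported here past the rule, and 5 of the 9 reached 10 FPKM in Ds1 or Ds3. Over all loci at that level, 3.93% were lower. CCoAOMT (Sobic.010G052200), a methyltransferase of the pathway, read 81.4 FPKM in Ds1 and 36.9 in Ds3, and CAD (Sobic.004G071000, the brown midrib gene bmr6), the last enzyme before polymerization, 14.1 and 6.31. The log2 differences of these genes were -1.12 and -1.04.

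The other genes of the lignin list did not pass the rule, and CCR, 4CL, F5H and C3H were under 10 FPKM in both Ds1 and Ds3. CCR (Sobic.007G141200), the first reductase on the way to monolignols, read 78.3 FPKM in booting and 4.45, 10.5 and 1.45 in Ds1, Ds2 and Ds3, so that Ds2 had the highest value of the 3. The ligase 4CL (Sobic.004G062500, bmr2) read 9.80 FPKM in Ds1, against 16.7 in Ds2 and 6.19 in Ds3, again highest in Ds2. C4H (Sobic.002G126600), the enzyme after PAL, read 40.1, 46.9 and 80.5 FPKM in Ds1, Ds2 and Ds3, and F5H (Sobic.001G196300), which commits precursors to syringyl units, 0.875, 1.56 and 3.65. C4H and F5H were the 2 members above their Ds1 value, by 0.99 and 1.31 in log2. HCT (Sobic.004G212300) and C3H (Sobic.009G181800), which act on shikimate esters, were within 0.25 log2, and the difference of HCT turned from -0.25 to 0.0018 with equal totals. The median over the 9 genes was -0.59 in log2, with 7 below Ds1.

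The listed secondary-wall cellulose synthase genes were low in both Ds1 and Ds3. The secondary-wall CESA genes read 1.83 FPKM (Sobic.001G224300), 1.58 (Sobic.002G205500) and 1.01 (Sobic.003G296400) in Ds1, and 0.337, 0.334 and 0.202 in Ds3. Booting had 16.9, 22.2 and 34.9 FPKM in the same order. The 3 genes were below the 10 FPKM minimum in both groups, so no call was made for them. CSLF6 (Sobic.007G050600), the synthase of mixed-linkage glucan, read 13.6 FPKM in Ds1, against 15.6 in Ds2 and 8.75 in Ds3, a log2 difference of -0.59. Of the green-tissue markers with an ID, PPDK (Sobic.009G132900) read 15.0 FPKM in Ds1 and 9.85 in Ds3, and the C4 PEPC gene (Sobic.010G160700) 0.139 and 0.0740. The part of green tissue in these differences was not tested, and no list of markers that define the internode itself could be filled.

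Of the 5 genes of the dhurrin cluster, 4 reached 10 FPKM in Ds1 or Ds3. Among these 4, 1 was lower in Ds3 by the rule, beside 3.93% of all loci at that level. UGT85B1 (Sobic.001G012400), the glucosyltransferase of the last step, read 16.02 FPKM in booting and 11.4, 1.33 and 1.04 in Ds1, Ds2 and Ds3, a log2 difference of -2.61. This difference was -1.44 with a pseudocount of 5 FPKM, which takes it under the line. CYP71E1 (Sobic.001G012200), the middle enzyme, read 58.3 FPKM in booting and 25.5 in Ds1, against 18.6 in Ds2 and 6.98 in Ds3, a log2 difference of -1.73. CYP79A1 (Sobic.001G012300), the first enzyme, was under the 10 FPKM minimum, at 1.16, 0.0112 and 0.0971 FPKM in Ds1, Ds2 and Ds3. The transporter gene MATE2 (Sobic.001G012600) read 68.7, 43.1 and 26.3 FPKM in Ds1, Ds2 and Ds3, and GST1 (Sobic.001G012500), a glutathione transferase gene of the cluster, 6112, 3605 and 3157. Their differences of -1.35 and -0.95 did not pass the rule. The median of the 5 was -1.35 in log2, and each had a smaller value in Ds3 than in Ds1, as did 52.5% of all 9441 loci.

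The genes of stem height and stem juice included a pair that was high in Ds1 and near booting in Ds3. The NAC factor gene at the Dry locus (Sobic.006G147400), where loss of function makes stems juicy, read 4.89 FPKM in booting and 33.2 in Ds1, against 15.8 in Ds2 and 3.57 in Ds3. Its log2 difference of -2.90 passed the rule. Dw3 (Sobic.007G163800), an auxin efflux carrier whose loss shortens internodes, read 4.87, 27.2, 27.6 and 6.24 FPKM in the same order. Ds1 and Ds2 were level for Dw3, and its difference of -1.96 was just short of 4-fold (-2.11 with a pseudocount of 0.1 FPKM). Dw2 (Sobic.006G067700), a protein kinase gene, read 50.4 FPKM in Ds1 and 40.3 in Ds3, and Dw1 (Sobic.009G229800), which acts in cell proliferation of the internode, 5.13 and 6.28.

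The listed clock and light-receptor genes did not pass the rule. LHY (Sobic.007G047400), a morning gene of the clock, read 40.1, 20.7 and 45.8 FPKM in Ds1, Ds2 and Ds3, against 285 in booting. TOC1 (Sobic.004G216700), an evening gene, read 57.7, 92.8 and 67.0 FPKM, and GI (Sobic.003G040900) 178, 185 and 253. LHY and TOC1 were thus within 0.21 log2 between Ds3 and Ds1, and among the 3 Ds groups Ds2 had the lowest LHY and the highest TOC1 value. Booting, with 15.9 FPKM of TOC1, lay outside the Ds range for both genes. No label gives the hour of harvest. The red-light receptor gene PHYB (Sobic.001G394400) had 21.3 FPKM in Ds1 and 12.2 in Ds3, and PHYC (Sobic.001G087100), another phytochrome gene, had 54.4 and 30.05, differences of -0.76 and -0.83.

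Over all lists, 34 of the 46 IDs reached 10 FPKM in Ds1 or Ds3, and 2 were higher and 4 lower by the rule. That is 17.6% of the 34, beside 5.18% of all loci, but the IDs were chosen with earlier results of these data known, and nothing is read from this share.

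**Figure D4:**
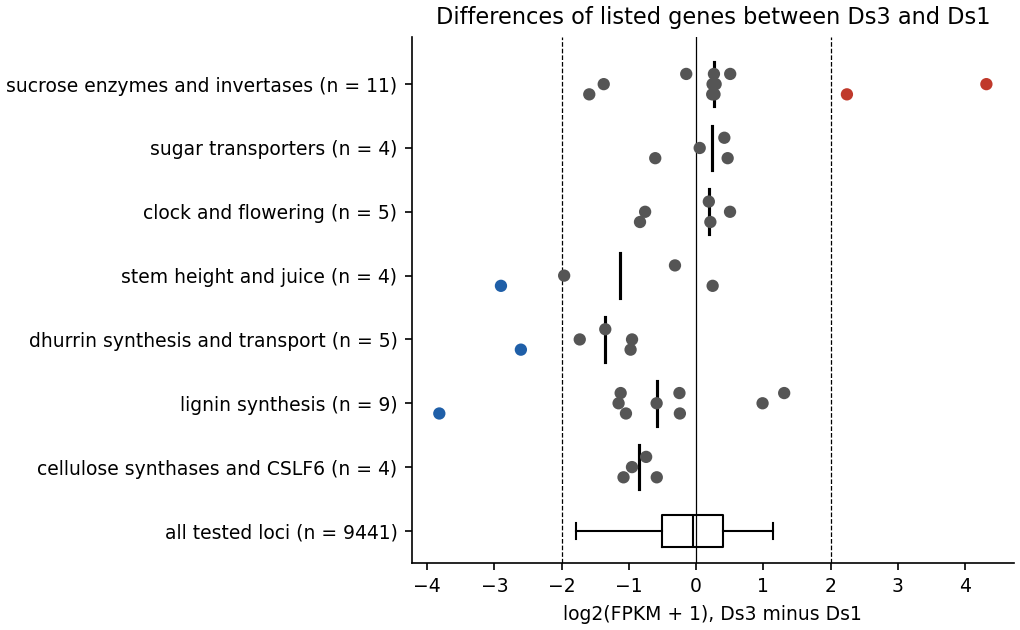
Points are listed genes by their difference in log2(FPKM + 1), Ds3 minus Ds1 (x axis), in 7 lists (y axis), with red and blue for genes past the rule, a bar at each list's median and dashed lines at 4-fold. The box gives the median and quartiles of all 9441 loci with whiskers at the 5th and 95th percentiles. The medians of the dhurrin (-1.35), stem (-1.14), cellulose (-0.85) and lignin (-0.59) lists lie below its -0.04. Unlike the box, the lists include genes under 10 FPKM, and they were chosen with earlier results of these data known. The cellulose median was -1.92 with a pseudocount of 0.1 FPKM and -0.33 with 5 FPKM.

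Of the 10 largest positive differences, 1 was the cell-wall invertase described above. The loci given next carry IDs for which no name is used here. The most negative difference was at Sobic.001G472000, with 112 FPKM in booting and 776 in Ds1, against 35.0 in Ds2 and 0.830 in Ds3, which is -8.73 in log2. The most abundant of the lower loci was Sobic.001G141300, with 1703, 30465, 14687 and 6479 FPKM in the same order. Its difference of -2.23 was -1.97 with equal totals and -1.30 with quantile normalization. The largest positive difference was at Sobic.001G515700, listed at 0 in booting, with 2.71, 85.5 and 128 FPKM in Ds1, Ds2 and Ds3, which is 5.12 in log2. The most abundant of the higher loci was Sobic.003G064300, with 476 FPKM in booting and 242 in Ds1, against 1194 in Ds2 and 1672 in Ds3. The 10 most negative differences, among IDs with a locus of their own and values above 0, ran from -8.73 to -5.75, with 87.0 to 978 FPKM in Ds1 and 0.418 to 6.15 in Ds3. The 10 largest positive ones ran from 3.88 to 5.12, with 0.148 to 5.93 FPKM in Ds1 and 15.95 to 131 in Ds3.

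Sorghum IDs hold the chromosome and a number that runs along it, and the assembled locus numbers of the table followed the same order, with a lowest Spearman's rho of 0.9999, on chromosome 6, over 1827 loci. Loci lower in Ds3 lay beside another lower locus in a larger share than loci in general, a difference for which no test was made. Of the lower loci with an ID of their own, 126 were followed by an ID that also reached 10 FPKM. Of these next loci 23 were lower too, or 18.3%, beside 3.81% of all 9223 such loci. The 23 include neighbours within the runs on chromosomes 6 and 7 described below, so this share and those runs are not separate results. The uncertainty given below about reads shared by similar neighbouring genes applies to this share too. For higher loci the next was higher in 2 of 32 cases, or 6.25%, beside 1.27%. Per chromosome the share of lower loci ran from 2.68% on chromosome 4 to 4.76% on chromosome 5. The share of higher loci ran from 0.801% on chromosome 7 to 2.65% on chromosome 5.

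The densest group was on chromosome 6. Among windows of 20 consecutive IDs, the fullest held 9 lower loci of 11 at 10 FPKM or more, and outside this stretch the next held 5, on chromosome 7. The run from Sobic.006G024800 to Sobic.006G026700 spans 22 IDs, of which 13 reached 10 FPKM and 10 were lower, by -7.50 to -4.25 in log2. Its limits were chosen after its values were seen. The median of the 10 loci was 1.53 FPKM in booting and 82.8, 1.21 and 1.02 in Ds1, Ds2 and Ds3.

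Most of these 10 loci were high in Ds1 only. Sobic.006G025900 read 1.12 FPKM in booting and 256 in Ds1, against 1.14 in Ds2 and 0.418 in Ds3. Sobic.006G026100, the most abundant, read 24.6 FPKM in booting and 498, 23.6 and 21.7 in Ds1, Ds2 and Ds3, so that 3 groups were level and Ds1 stood above them. Sobic.006G024800, Sobic.006G025400, Sobic.006G025600, Sobic.006G025700 and Sobic.006G026000 had 29.7 to 94.8 FPKM in Ds1 and at most 3.38 in the other groups. At the far end the pattern differed. Sobic.006G026400 read 413 FPKM in booting and 166 in Ds1, against 13.2 in Ds2 and 1.41 in Ds3, and Sobic.006G026700 read 86.7, 61.5, 7.32 and 1.59, with booting above Ds1. Sobic.006G026600 read 9.69, 35.7, 0.990 and 0.312 FPKM.

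Loci inside and beside the run did not all differ. Sobic.006G025000 read 31.5 FPKM in Ds1 and 17.4 in Ds3, Sobic.006G025300 read 8.55 and 16.8, and Sobic.006G026250 read 15.7 and 13.2. Sobic.006G026300, with 9.76 FPKM in Ds1 and 0.172 in Ds3, lay just under the minimum. Among the 6 IDs on each side, those with 10 FPKM or more were Sobic.006G024500 at 29.2 and 55.1 FPKM, Sobic.006G027000 at 21.6 and 25.5, and Sobic.006G027200 at 25.03 and 34.7. The sources used here do not state whether reads shared by similar neighbouring genes were split between them, so single values within the run are uncertain to that extent.

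**Figure D5:**
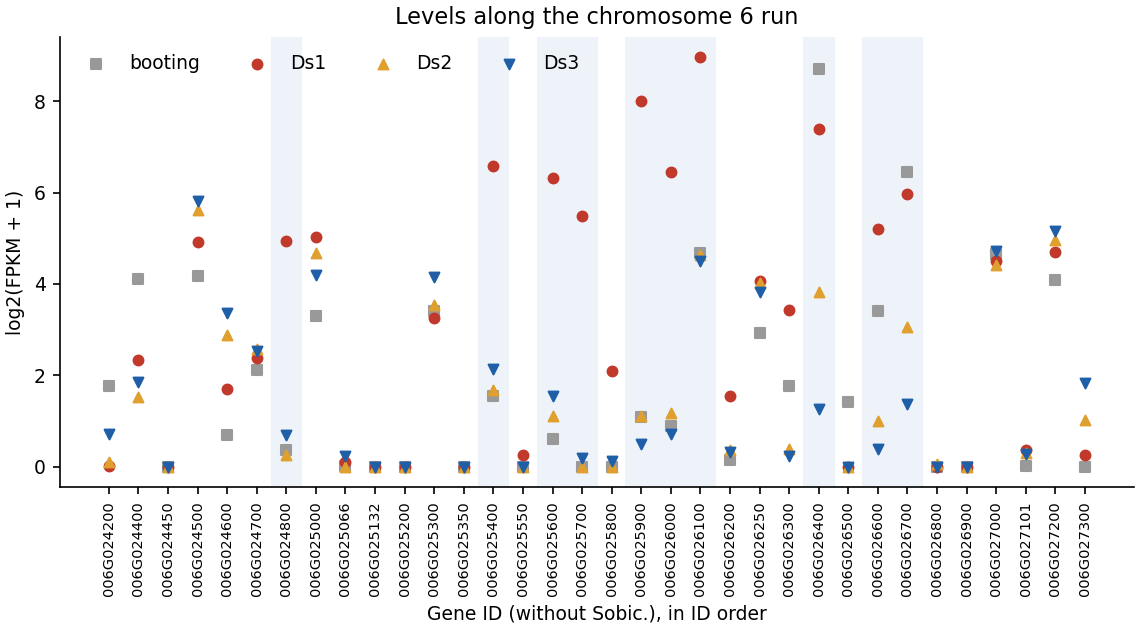
Points show log2(FPKM + 1) (y axis) in booting, Ds1, Ds2 and Ds3 for the IDs of the chromosome 6 run and the 6 IDs on each side, in ID order (x axis), with shading where Ds3 is lower by the size rule. In the 10 shaded IDs Ds1 stands well above Ds3, and in the unshaded IDs at 10 FPKM or more Ds1 and Ds3 lie within 4-fold of each other.

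A shorter run on chromosome 7 showed a similar order of the Ds groups. The 4 consecutive IDs from Sobic.007G077001 to Sobic.007G077300 were all lower in Ds3, by -3.64 to -2.53 in log2. Their medians were 10.04 FPKM in booting and 60.0, 9.99 and 6.98 in Ds1, Ds2 and Ds3. Sobic.007G077100, the most abundant of them, read 23.6 FPKM in booting and 226 in Ds1, against 57.2 in Ds2 and 38.2 in Ds3. On chromosome 8, 3 of the 6 IDs from Sobic.008G117300 to Sobic.008G118000 reached 10 FPKM, and all 3 were lower, by -4.45 to -3.64. Their booting median of 15.98 FPKM lay nearer to the 30.8 of Ds1 than those of Ds2 and Ds3, at 1.06 and 0.574, so here booting was not level with Ds3. No window of 20 IDs held more than 3 loci higher in Ds3, and the 3 were on chromosome 4.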

How the data were processed

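The authors deposited FPKM values with 1 value per group of 2 libraries, per the file headers and the column names; the table's own name supplies the unit. How the 2 libraries were combined, the genome build and the read totals are not given in the sources used here, so depth is unknown and no counting interval is printed. Libraries were TruSeq Stranded Total RNA, per the labels' protocols. Per the submitters' processing notes, the tools included HISAT2 2.0.5, cutadapt 1.8.1, Cuffdiff and Bowtie2 2.2.9, listed without role or setting. The 3 columns of the separately scaled developmental part were not used.

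From the deposited FPKM of the water-limiting part, log2(FPKM + 1) differences were computed over loci with a gene ID (Python 3.11.15, numpy 2.4.6, pandas 2.3.3). This scale understates differences of low genes. The 1327 loci without an ID were set aside, and 819 loci share 404 IDs with another locus. With 1 value per group no test was made. The size rule, a ratio of at least 4 and 10 FPKM in the higher group, has no known error rate, since without replicates none can be estimated; only its code was checked, on simulated data. IDs to print were the largest differences, the most abundant loci, and the list members that passed the rule or were most abundant. Other list members are added for their pathway. For IDs without a name 2 higher and 2 lower are printed, so the most abundant of these IDs that did not pass the rule are left out. The neighbouring runs are printed besides, and they were picked after their values were seen. Of 31 lists, 20 defined only by product names could not be filled, and neither could the product-name part of the others; 1 listed gene of the lignin list is not reported here. The members and lists were chosen with earlier results of these data known. Alternatives changed the pseudocount, the minimum, the ratio, the scaling and the use of shared IDs.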

Additional observations from a re-analysis of the deposited data

How the results depend on the processing

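The counts as deposited, 118 higher and 371 lower loci, were 47 and 198 with a pseudocount of 5 FPKM and 645 and 1158 at a ratio of 2. With equal totals without the 10 most abundant loci of each group they were 188 and 265, and the median log2 difference was 0.24 in place of -0.04, a change made by the scaling factor itself. Under the other alternatives (pseudocount of 0.1 FPKM, no minimum, a mean of at least 5 FPKM, median-of-ratios scaling, quantile normalization, IDs with a locus of their own) the counts stayed within 1.5 times of those as deposited, at 116 to 170 higher and 324 to 503 lower. Lower loci outnumbered higher ones under each alternative run. The medians of the lists with at least 4 members kept their sign in every alternative. Of the 27 genes past the rule among the listed and most extreme genes, 0 changed sign in the 8 alternatives that apply to single genes. In all 8, 23 of the 27 kept their call, among them 3 of the 6 listed genes past the rule. The other 4 of the 27 are UGT85B1, P5CS2, sucrose-phosphate synthase Sobic.005G089600 and Sobic.001G141300, whose values are given above. Using no minimum, a mean of at least 5 FPKM or IDs with a locus of their own could not change the call of any of the 27. The most extreme genes were picked for their large differences, so their kept calls say little. Windows of 10 and 40 IDs, tried after the run on chromosome 6 was seen, held at most 6 and 10 lower loci, against 9 in a window of 20. No alternative that leaves out a library could be run, since each group has 1 pooled value. No paired analysis was possible because the columns carry no replicate numbers. The level classes were compared across scalings after the data were seen, and at 500 FPKM or more quantile normalization put more loci higher than lower.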

Other observations

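Loci that name no gene were left out above. Of the 1327 such loci, 209 reached 10 FPKM in Ds1 or Ds3. By the size rule 25 of these were higher in Ds3, or 11.96%, and 17 were lower, or 8.13%, with a median log2 difference of 0.10. Higher loci were thus more frequent than lower ones among loci without a gene ID, the reverse of the order among loci with one.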
